A study of Mus musculus with 6 samples.

Results

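Desaturases, among them the delta-5, delta-6 and delta-9 enzymes, and elongases of long-chain fatty acids were examined at the RNA level. The samples were L929 cells, a mouse fibroblast line from connective tissue. The 10 genes were fixed by symbol: Fads1, Fads2, Fads3, Scd1, Scd2, Elovl1, Elovl2, Elovl5, Elovl6 and Elovl7. All 10 were found among the 27507 gene identifiers of the deposited table. Poly(A) RNA was sequenced from 3 control samples, whose genotype is given as WT, and from 3 samples of the same line with the genotype STING KO. No treatment is named for either group, and the sources used here give neither the way the knockout was made nor whether it is 1 clone or a pool. Nothing says that the replicates were separate cultures, so p-values cover only the scatter among these libraries, and that scatter may be technical.

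Fatty acid desaturases place double bonds in acyl chains, and elongases add carbons to them on the endoplasmic reticulum. FADS2 carries out the delta-6 step that starts the making of long polyunsaturated acids from dietary linoleic and alpha-linolenic acid, ELOVL5 and ELOVL2 lengthen the products, and FADS1 carries out the delta-5 step that yields arachidonic and eicosapentaenoic acid. SCD1 and SCD2 make oleic and palmitoleic acid from saturated chains. STING is an endoplasmic reticulum adaptor of DNA sensing, and the protein has been reported to bind FADS2 and to restrain its activity. The comparison here asks whether any desaturase or elongase RNA differed between the STING KO and control samples.

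No desaturase or elongase RNA was called different between STING KO and control. Of the 10 genes, 8 passed the minimum of 10 normalized counts (counts divided by the authors' size factor of each sample) in at least 3 samples. Of these 8, limma called 0 at an adjusted p at or under 0.05, while 0.258% of the 12408 genes tested were called lower and 0% higher. At an unadjusted p at or under 0.05 there were also 0 of 8, against 6.37% of all genes tested. In 0 of 8 did the values of the groups stand apart without overlap, which 12.1% of all genes tested showed. The authors' deposited table gives 9 of the 10 an adjusted p, and calls 0 of them, against 0.294% of the genes with an adjusted p there. Of the 8 genes, 3 had a higher and 5 a lower mean log2 value in STING KO, at a median log2 fold change of -0.02 (all genes tested: -0.00).

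**Figure D1:**
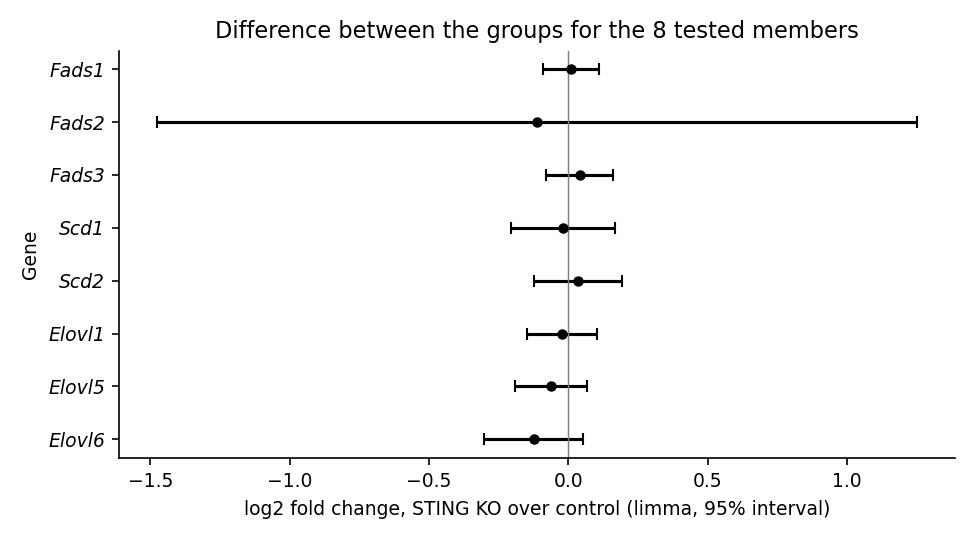
The fitted log2 difference between STING KO and control, positive where STING KO is higher (horizontal axis), is plotted for the 8 tested genes, each point with its 95% interval from limma. The intervals of 7 genes stay within 0.811 to 1.14 in fold, and that of Fads2 runs from 0.360 to 2.38.

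The precision differed sharply between Fads2 and the rest. For the 7 tested genes other than Fads2, the 95% intervals of the fold change ran from 0.811 at the lowest bound to 1.14 at the highest. All 7 thus lay within 1.5-fold in both directions, as did 85.4% of all genes tested. The interval of Fads2 ran from 0.360 to 2.38 in fold, with a standard error on the log2 scale of 0.61, against a median of 0.08 over all genes tested. These are bulk samples, in which fewer cells with a transcript and less transcript per cell cannot be told apart.

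Before the values of single genes, the libraries themselves need a description. Sting1 (Tmem173 in the table) was at 311 to 329 normalized counts in control and at 80.6 to 93.4 in STING KO, the lower group being the one labelled STING KO. The fibroblast genes Vim and Col1a2 were at 79614 to 103473 and 26399 to 29285 normalized counts in the 6 libraries, while Fap was at 0 in 5 of them and at 1.0 in the other. Of the same marker list, Thy1 was at 28.1 to 59.6 and Postn at 3.99 to 10.9, and Dcn and Lum are given in the closing section. Control replicate 3 and STING KO replicate 1 stood apart by transcripts that are typical of liver: the summed level of 16 hepatocyte markers was 5700.4 and 5293 normalized counts there, and 352 to 800.5 in the remaining 4 libraries. All 16 markers had reads in at least 1 library, and for 15 of the 16 both of these libraries were at least 2-fold above every other library. Hepatocytes are rich in delta-6 desaturase and in ELOVL2. The fold change of Fads2 is therefore given below with and without these libraries, and that of Elovl2 only with them.

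Fads2, the delta-6 desaturase, had the widest spread relative to its mean among the 8 tested members. The gene (ENSMUSG00000024665) lies on chromosome 19 at 10062765 to 10101746 on the minus strand of GRCm38, in 12 exons of its longest protein-coding transcript. It was at 23.0, 15.0 and 68.5 normalized counts in control replicates 1, 2 and 3, and at 61.4, 15.9 and 19.1 in STING KO replicates 1, 2 and 3. Thus 1 library of each group was high, both were the libraries that stand apart by liver transcripts, and the other 4 libraries overlapped between the groups. The control mean was 35.5 ± 28.9 and the knockout mean 32.1 ± 25.4 (SD, n = 3 each), a log2 fold change of -0.11, with standard error 0.61 (limma adjusted p = 0.957).

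The deposited values are not raw counts, but each column runs in whole multiples of 1 step, and counting error can be given if a step is taken as 1 read, which no source states. On that reading Fads2 had 69 reads in control replicate 3 (exact Poisson 95% interval 53.7 to 87.3) and 62 reads in STING KO replicate 1 (47.5 to 79.5). The other 4 libraries held 15 to 23 reads, with upper bounds of 24.7 to 34.5, below the lower bounds of both high libraries. Such intervals cover counting error only. Without both high libraries the log2 fold change of Fads2 was -0.09 (95% interval -0.86 to 0.68, limma adjusted p = 1.0 with 2 samples in each group), or 0.551 to 1.61 in fold. Leaving out control replicate 3 alone gave 0.52, and leaving out STING KO replicate 1 alone gave -0.72. The sign also changed without STING KO replicate 2 (0.25) and without STING KO replicate 3 (0.12), and stayed negative without control replicate 1 (-0.27) or control replicate 2 (-0.58). In the authors' deposited table the log2 fold change of Fads2 is -0.14 with a standard error of 0.57.

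Elovl2, the elongase of polyunsaturated chains that FADS2 products feed, was near the limit of detection and moved with Fads2. The gene (ENSMUSG00000021364) lies on chromosome 13 at 41182381 to 41220405 on the minus strand. It was at 2.0, 0 and 12.9 normalized counts in control replicates 1 to 3 and at 12.9, 4.98 and 1.0 in STING KO replicates 1 to 3. The same 2 libraries were the highest, and only they reached the minimum of 10, so Elovl2 was not among the genes tested. With no minimum its log2 fold change was 1.58, with a 95% interval of -2.22 to 5.37 (limma adjusted p = 0.791), on a scale where the library at 0 weighs heavily. The authors' deposited table gives 0.34 with a standard error of 1.15. If a step is 1 read, the Poisson 95% interval of Elovl2 was 6.92 to 22.2 reads in both high libraries. It overlapped those of control replicate 1 (0.242 to 7.22) and STING KO replicate 2 (1.62 to 11.7). The upper bounds of control replicate 2 (3.69) and STING KO replicate 3 (5.57) lay below it.

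**Figure D2:**
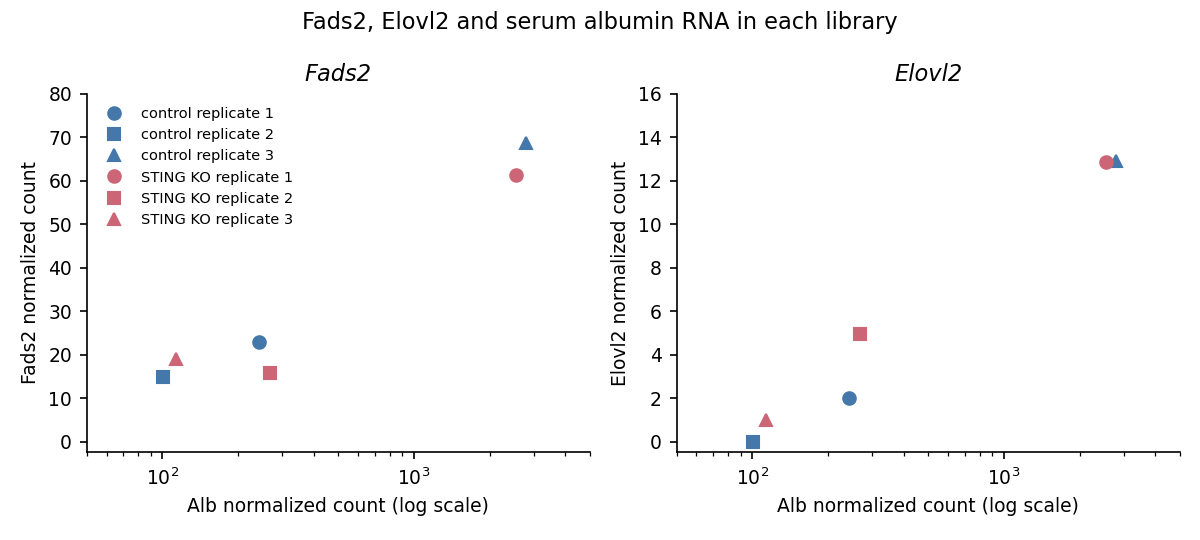
Normalized counts of Fads2 (left) and Elovl2 (right) are plotted against those of Alb, the serum albumin gene (log scale), with 1 point per library, coloured by group and shaped by replicate. Control replicate 3 and STING KO replicate 1 lie at the upper right in both panels, at Alb levels of 2780 and 2552 against 101 to 268 in the other 4 libraries.

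Among the 4 libraries of low liver signal, Alb was at 101, 113, 243 and 268 normalized counts in control replicate 2, STING KO replicate 3, control replicate 1 and STING KO replicate 2, in rising order. In the same order Fads2 was at 15.0, 19.1, 23.0 and 15.9, and Elovl2 was at 0, 1.0, 2.0 and 4.98. The Elovl2 values thus rose in the order of Alb, while those of Fads2 showed no order. If a step is 1 read, the Poisson intervals overlapped among these 4 libraries for both genes. For Elovl2 they ran from 0 to 3.69 reads in control replicate 2 and from 1.62 to 11.7 in STING KO replicate 2. At so few reads, overlap of separate intervals cannot decide whether the rise of Elovl2 went beyond counting error. Per 1000 normalized counts of Alb, Fads2 was at 24.7 and 24.0 in the 2 libraries rich in Alb and at 59.5 to 168 in the other 4. On the same scale Elovl2 was at 4.65 and 5.04 in the 2 rich libraries and at 0 to 18.6 in the other 4. What part liver RNA has in the Fads2 and Elovl2 values was not tested.

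The genes most like Fads2 across the 6 libraries were Mettl7b, Serping1 and C3. Likeness was the root mean square difference of log2 values, each gene centred on its own mean, over all genes tested outside the 10. It was 0.12 for Mettl7b, a methyltransferase-like gene, 0.15 for Serping1, the inhibitor of complement component C1, and 0.23 for C3, the central complement component. Mettl7b was at 17.97, 14.0 and 55.6 normalized counts in control and at 56.4, 11.9 and 15.1 in STING KO, the pattern of Fads2. Of all genes tested, 44 (0.355%) had both libraries at least 2-fold above each of the others and at 10 or more, Fads2 among them. Among all 27507 genes of the table, tested or not, 142 showed this pattern, with Fads2 and Elovl2 as 2 of the 10 members. Of the 100 genes in 7 lists of fatty acid metabolism, 2 showed it. They were Slc27a2, a very-long-chain acyl-CoA synthetase that did not pass the minimum for testing (41.7 and 49.5 against 4.99 to 9.98), and Ehhadh, the peroxisomal bifunctional enzyme (34.8 and 96.0 against 4.99 to 16.9).

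Fads1, which carries out the delta-5 step after FADS2 and an elongase, was the steadiest member. The gene (ENSMUSG00000010663) lies on chromosome 19 at 10182888 to 10196877 on the plus strand, 81.1 kb from the start of Fads2. It was at 4096, 4041 and 3926 normalized counts in control and at 3997, 4164 and 3988 in STING KO. The groups overlapped, although STING KO replicate 2 was the highest library and control replicate 3 the lowest, with means of 4021 ± 86.9 and 4049 ± 99.1 (SD, n = 3 each) and a log2 fold change of 0.01, with standard error 0.04 (limma adjusted p = 0.949). The 95% interval of the fold change was 0.939 to 1.08.

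Fads3, the remaining gene of the cluster, which acts on sphingoid bases, was likewise close to equal. It lies on chromosome 19 at 10041569 to 10060110 on the plus strand (ENSMUSG00000024664). Its values were 3824, 4091 and 3848 normalized counts in control and 3974, 3869 and 4257 in STING KO, with a log2 fold change of 0.04, with standard error 0.05 (adjusted p = 0.821). STING KO replicate 3 was the highest and control replicate 2 the next, and the other 4 libraries lay between 3824 and 3974. The 3′ ends of Fads3 and Fads2 face each other across 2654 bases. The strand setting of the counting is not given, and whether reads of one gene were counted for the other was not tested.

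Fads2 thus stood far below both of its neighbours in the cluster. Per kb of the longest protein-coding transcript, Fads1 was 52.1 to 246 times and Fads3 48.0 to 234 times the level of Fads2 in the 6 libraries. The lowest ratios were in the 2 libraries in which Fads2 was high. The share of 50-base words that Fads2 has in common with transcripts of another gene was 0.161%, all of them with Fads3. For Fads1 it was 0%.

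The sequences around the start sites of Fads2, Fads3 and Elovl2 are shown because Fads2 and Fads3 are neighbours of very unequal level, and Fads2 and Elovl2 were high in the same libraries. They come from RefSeq on GRCm38.p6 and hold 250 bases before and 50 after the start, 5′ to 3′ on the strand of the gene. Entries were matched for 7 of the 10 genes, those without one being Fads1, Scd1 and Scd2. Fads2 is at chr19:10101454-10101753 on the minus strand, Fads3 at chr19:10041298-10041597 on the plus strand and Elovl2 at chr13:41220354-41220653 on the minus strand. In GENCODE the Fads2 gene starts at 10101746, close to the upstream edge of its window. Most of the 250 bases before its RefSeq start thus lie inside the GENCODE gene. For Fads3 (10041569) and Elovl2 (41220405) the GENCODE start lies near the RefSeq start. Capitals mark GGGCGG (the GC box bound by Sp1), CCAAT (the NF-Y box) and their reverse complements.
Fads2: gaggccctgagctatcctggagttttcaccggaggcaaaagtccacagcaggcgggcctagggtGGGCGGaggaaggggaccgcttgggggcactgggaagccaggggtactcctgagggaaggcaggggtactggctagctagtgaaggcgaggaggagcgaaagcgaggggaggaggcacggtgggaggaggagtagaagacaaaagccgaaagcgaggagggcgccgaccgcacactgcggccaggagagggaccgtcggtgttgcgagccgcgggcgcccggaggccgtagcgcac
Fads3: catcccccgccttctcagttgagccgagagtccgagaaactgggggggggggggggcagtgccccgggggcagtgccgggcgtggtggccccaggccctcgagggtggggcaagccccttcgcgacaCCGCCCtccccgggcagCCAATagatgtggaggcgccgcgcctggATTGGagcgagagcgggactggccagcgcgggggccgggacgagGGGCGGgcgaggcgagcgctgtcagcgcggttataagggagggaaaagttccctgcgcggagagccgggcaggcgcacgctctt
Elovl2: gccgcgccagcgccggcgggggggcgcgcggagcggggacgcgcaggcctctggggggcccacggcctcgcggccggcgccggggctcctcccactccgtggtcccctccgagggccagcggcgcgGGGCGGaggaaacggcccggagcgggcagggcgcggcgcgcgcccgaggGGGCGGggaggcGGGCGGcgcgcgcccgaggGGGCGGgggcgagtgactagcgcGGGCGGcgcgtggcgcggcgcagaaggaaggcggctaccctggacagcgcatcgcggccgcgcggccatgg

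The window of Fads2, most of it inside the GENCODE gene, held 23 CpG dinucleotides, 1 GC box and 0 NF-Y boxes. That of Fads3 held 31 CpG, 2 GC boxes and 2 NF-Y boxes, and that of Elovl2 held 56 CpG, 5 GC boxes and 0 NF-Y boxes. The median over 32851 windows was 7 CpG, and 99.8% of the windows had fewer CpG than that of Elovl2. Of all windows 35.7% held a GC box and 37.4% an NF-Y box, on either strand. The letters CACCCCAC, a core of the sterol regulatory element, were also searched on both strands. They were in 2.87% of all windows and, among the 7 genes with an entry, in that of Elovl7, a gene without reads here. A match describes these letters only.

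Scd2 and Scd1, the stearoyl-CoA desaturases, were the most abundant desaturase RNAs, and neither differed between the groups. Scd2 (ENSMUSG00000025203, chromosome 19, 44293674 to 44306864, plus strand) was at 19623, 17875 and 19472 normalized counts in control and at 19749, 21254 and 17532 in STING KO. The log2 fold change was 0.04 (SE 0.07, limma adjusted p = 0.883). STING KO held both the highest and the lowest library, and control lay between them.

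Scd1 (ENSMUSG00000037071, chromosome 19, 44394455 to 44407879, minus strand) was at 6478, 5739.9 and 6599 normalized counts in control and at 6403, 6757 and 5459.8 in STING KO. Its log2 fold change was -0.02 (SE 0.08, adjusted p = 0.950), and here too the STING KO samples spanned the control samples. The library order of Scd1 resembled that of Scd2, with STING KO replicate 2 highest and STING KO replicate 3 lowest for both. Per length, Scd2 was 2.61 to 2.84 times as high as Scd1, with a control mean of 2.69 ± 0.0725 and a knockout mean of 2.79 ± 0.0561 (SD, n = 3 each). Words of 50 bases shared with other genes made up 4.66% of Scd1 and 4.01% of Scd2, so a small part of their reads could be assigned to either or to Scd3.

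**Figure D3:**
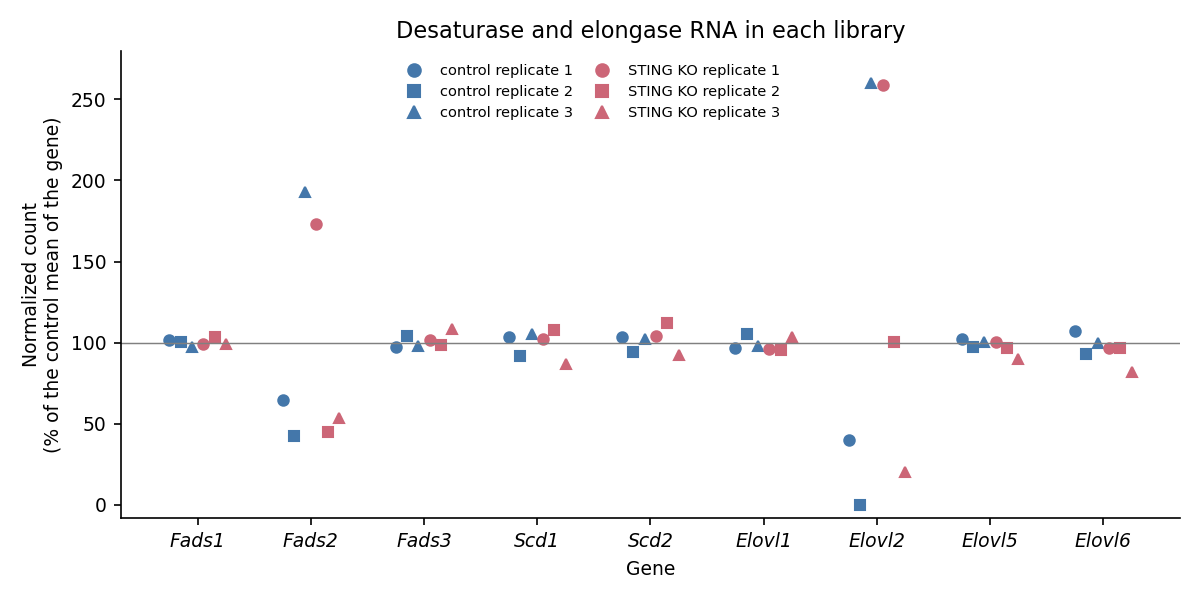
Normalized counts of the 9 genes with reads are plotted as a percentage of the control mean of each gene, with 1 point per library, coloured by group and shaped by replicate. The points of 7 genes gather around 100%, while those of Fads2 split into 2 high libraries and 4 low ones. For Elovl2 the same 2 libraries are highest, and the other 4 spread from 0 to about 100%.

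The elongase of saturated chains, Elovl6, which turns palmitate into stearate, had the smallest p among the 8 genes. The gene (ENSMUSG00000041220) lies on chromosome 3 at 129532355 to 129638495 on the plus strand. It was at 2141, 1857 and 1999.8 normalized counts in control and at 1937, 1938 and 1638 in STING KO. STING KO replicate 3 was the lowest library, but the other 2 STING KO libraries lay above control replicate 2. The log2 fold change was -0.12 (SE 0.08, unadjusted p = 0.152, limma adjusted p = 0.739), and without STING KO replicate 3 it was -0.04. Words shared with other genes made up 4.40% of its transcript, most of them with Gm11295.

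Elovl5, the elongase that acts between the delta-6 and delta-5 steps, was at 1700.2, 1610.0 and 1666 normalized counts in control and at 1669.7, 1604 and 1496 in STING KO. Its log2 fold change was -0.06 (SE 0.06, adjusted p = 0.766), and 1 STING KO library lay within the control range, with another just under the lowest control and STING KO replicate 3 lowest. It lies on chromosome 9 at 77917364 to 77984519 on the plus strand (ENSMUSG00000032349).

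Elovl1, which makes very long saturated and monounsaturated chains for sphingolipids, was at 2408, 2629 and 2441 normalized counts in control and at 2395, 2382 and 2582 in STING KO. The log2 fold change was -0.02 (SE 0.06, limma adjusted p = 0.907). It lies on chromosome 4 at 118428093 to 118432953 on the plus strand (ENSMUSG00000006390). Its high libraries, control replicate 2 and STING KO replicate 3, were the ones in which Fads3 was also high.

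Elovl7, an elongase of saturated chains on chromosome 13 at 108214404 to 108285683 (ENSMUSG00000021696, plus strand), was listed at 0 in all 6 libraries. If a column step is 1 read, a count of 0 allows up to 3 reads, or 0.206 to 0.208 on the CPM scale. No fold change is given for it.

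Part of the spread within the groups was shared between members. Control replicate 2 and STING KO replicate 3 were each the lowest of their group for 4 of the 8 tested genes (Scd1, Scd2, Elovl5 and Elovl6) and the highest for 2 (Fads3 and Elovl1). Over all genes tested, 27.7% were lowest and 26.6% highest in both libraries, so this pairing of libraries was common in the table. The comparison was chosen after the values were seen, and its part in the group differences was not tested. Leaving out STING KO replicate 3 moved Scd1 from -0.02 to 0.07 on the log2 scale and Scd2 from 0.04 to 0.11, with no call.

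Set against each other per kb of the longest protein-coding transcript, the members fell into a high set and a near-silent set. Scd2 led at 3481 ± 178 normalized counts per kb in control (SD, n = 3), above every value of any other member. Elovl1 (1376 ± 65.7), Scd1 (1298 ± 96.3), Fads1 (1162 ± 25.1) and Fads3 (1063 ± 40.1) followed. Elovl1 and Scd1 overlapped in their control values, while the lowest Scd1 value, 1188, lay just above the highest of Fads1, 1184. Elovl5 (596 ± 16.4) and Elovl6 (336 ± 23.8) lay lower and apart from their neighbours. Fads2 (11.3 ± 9.18) and Elovl2 (1.29 ± 1.81) were the lowest with reads. The order was the same in STING KO. With the union of all exons as length, the 4 genes ran Scd1, Fads3, Elovl1 and Fads1, so the order within this middle set depends on the length used, while the ranks of Scd2, Elovl5, Elovl6, Fads2, Elovl2 and Elovl7 held.

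**Figure D4:**
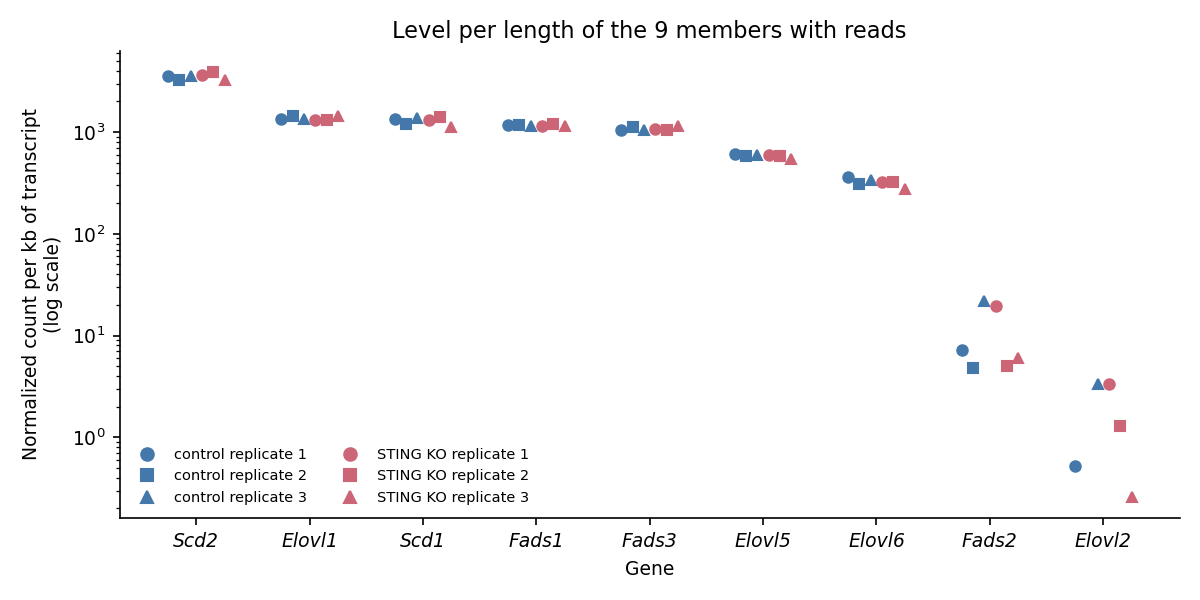
Normalized counts per kb of the longest protein-coding transcript (log scale) are plotted for the 9 genes with reads, with 1 point per library, coloured by group and shaped by replicate. Fads2 and Elovl2 lie far below the other 7, and Elovl2 has 5 points because control replicate 2 is at 0.

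Other genes of the same metabolism were described from 7 lists that hold 100 genes, of which 78 were tested. Of these 78, 0 were called in either direction, 3 (3.85%) had an unadjusted p at or under 0.05 against 6.37% of all genes tested, and 6 (7.69%) had groups without overlap against 12.1%. Their median log2 fold change was 0.01. In the remaining desaturase and elongase genes, 0 of 2 tested were called, and 5 of the 7 stayed under 10 in every library (Scd3, Scd4, Elovl3, Elovl4 and Degs2).

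Degs1, the dihydroceramide desaturase, was at 5179.6, 5149 and 5025 normalized counts in control and at 4743, 4813 and 4651 in STING KO. Every STING KO value lay under every control value, at a log2 fold change of -0.11, with standard error 0.04 (unadjusted p = 0.0262, limma adjusted p = 0.738), which did not pass the threshold. Fads6, a desaturase-like gene, was at 22.0, 30.9 and 35.8 in control and at 48.5, 35.8 and 33.1 in STING KO, with overlapping groups (adjusted p = 0.738).

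The partners of the desaturases and elongases were likewise not called. Of the elongation cycle and electron donor genes, 0 of 10 tested were called, at a median log2 fold change of 0.02. Hacd1, a dehydratase of the elongation cycle, had the smallest p (302 ± 22.5 and 342 ± 24.6 normalized counts, SD, n = 3 each, log2 fold change 0.18, adjusted p = 0.738). Next was Cyb5b, a cytochrome b5 of the outer mitochondrial membrane, at 5459.9 ± 83.0 and 5198 ± 231 (adjusted p = 0.741). Of the genes of de novo synthesis, 0 of 9 were called, at a median of -0.03. Acaca, the acetyl-CoA carboxylase, was at 705 ± 40.1 and 643 ± 22.8 normalized counts, and Acss2, an acetyl-CoA synthetase, at 105 ± 20.8 and 126 ± 8.35 (SD, n = 3 each, adjusted p = 0.738 for both).

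Regulators of these genes had 0 of 16 tested called, at a median of 0.00. Srebf1, which encodes the SREBP-1 factors that drive desaturase and lipogenic genes, was at 4016, 3956 and 3811 normalized counts in control and at 4109, 4179.6 and 4190.5 in STING KO. Its groups did not overlap, at a log2 fold change of 0.08, with standard error 0.04 (unadjusted p = 0.0913, limma adjusted p = 0.738). Mlx, the partner of ChREBP and MondoA, averaged 764 ± 20.8 against 713 ± 18.9 (SD, n = 3 each), also without overlap (adjusted p = 0.738). Of the genes for acyl-CoA synthesis and phospholipid remodelling, 0 of 16 were called, at a median of -0.02. The smallest p values were those of Acsbg1 (log2 fold change 0.21, adjusted p = 0.744) and Slc27a4 (0.08, adjusted p = 0.747), an acyl-CoA synthetase and a fatty acid transporter.

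The peroxisome shortens the longest products by beta-oxidation in the last step to docosahexaenoic acid, and 0 of 13 tested genes of these steps were called, at a median of 0.03. Acaa1a, a peroxisomal thiolase, had the smallest p of the 78 genes. It was at 281, 303 and 301 normalized counts in control and at 355, 339 and 361 in STING KO. All STING KO values lay above all control values, at a log2 fold change of 0.25, with standard error 0.07 (unadjusted p = 0.00559, limma adjusted p = 0.554), which did not pass the threshold. Decr2, a peroxisomal dienoyl-CoA reductase, had a log2 fold change of 0.16 (adjusted p = 0.739).

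Of the enzymes that use polyunsaturated acids, 0 of 12 tested were called, at a median of 0.05. Ptgs2, the inducible cyclooxygenase that consumes arachidonic acid, was at 42.9, 34.9 and 29.8 normalized counts in control and at 21.8, 29.9 and 18.1 in STING KO. The highest STING KO library lay just above the lowest control library. Its log2 fold change was -0.64 (SE 0.24, unadjusted p = 0.0261, limma adjusted p = 0.738). Ephx2, the soluble epoxide hydrolase, averaged 542 ± 33.4 against 603 ± 37.7 (SD, n = 3 each), with an adjusted p = 0.738 from limma.

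**Figure D5:**
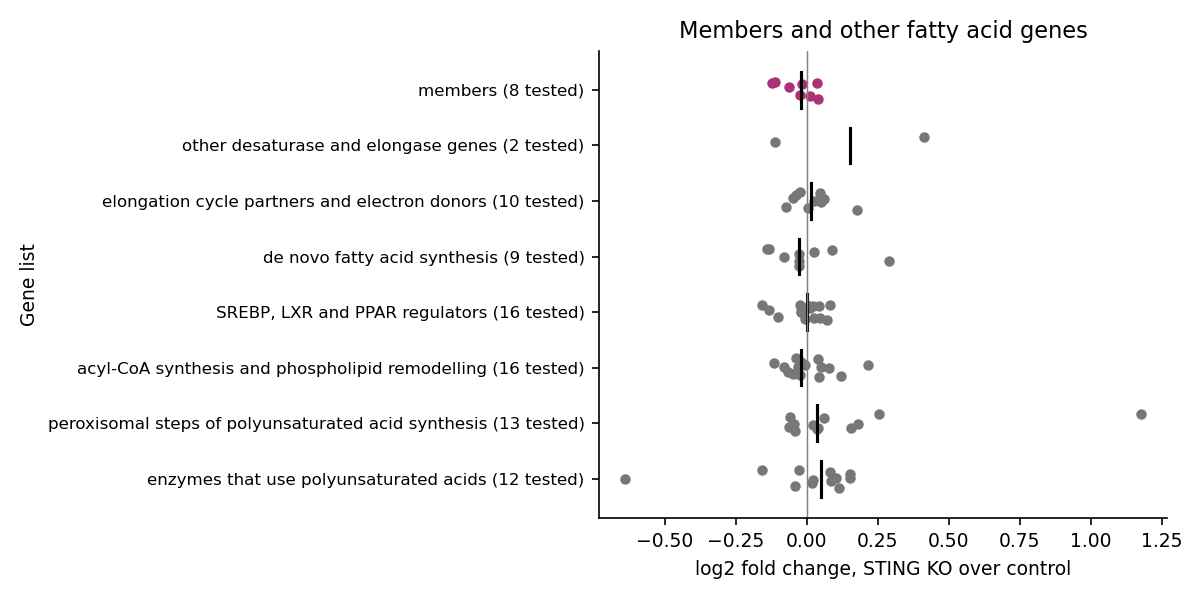
The fitted log2 difference between STING KO and control, positive where STING KO is higher (horizontal axis), is plotted for each tested gene of the members and of the 7 lists, with 1 point per gene and a bar at the median. The medians lie between -0.03 and 0.15, the last being that of a list of 2 genes, and the points farthest out are Ehhadh at 1.18 and Ptgs2 at -0.64.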

How the data were processed

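Per the labels' protocols, TRIzol was used for total RNA and oligo(dT) beads for mRNA. Groups and replicate numbers come from the sample titles. The submitters' processing notes name, without roles, RSEM 1.2.12, HISAT2 2.0.4, DESeq2 1.4.5 and Bowtie2 2.2.5, and the builds GRCm38 and mm10. No source used here gives the annotation or strand setting, so overlapping or near-identical genes may share reads.

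The authors deposited 1 table, whose sample columns hold a signal, each gene count scaled by the size factor of its library. This was read from the values: 100% of those above 0 were whole multiples of a step per column, within 0.01. Totals were 14382072 to 14526606 normalized counts per library. Per the file headers, the authors' comparison is given as a log2 fold change with its standard error, a Wald score, and a p-value and adjusted p-value. The first row of each of 27507 identifiers was used, and 27480 were found in GENCODE M21.

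limma 3.58.1 (R 4.3.3) with a mean-variance trend was fitted to log2(normalized count + 0.1) for the 12408 genes that reached 10 in 3 or more samples, without covariates, and p-values were adjusted over all of them by Benjamini and Hochberg. On this scale the pseudocount understates the change of low genes, except that a library at 0 can enlarge it, as for Elovl2. The fit was tested on simulated data in which all genes were given the same dispersion, that is, the same relative scatter beyond counting error. That simulation did not cover a gene with as wide a spread as Fads2. Alternatives are given in the closing section.

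The members, lists and alternatives were chosen with earlier results of these data known. Named are the 10 members, Sting1, from each list the called genes and the 2 genes with the smallest p, the 3 genes closest to Fads2, and Alb with the most abundant gene of each marker list. Others were named after their values were seen. Replicate numbers did not pair the samples: deviations of same-numbered libraries from their group means correlated at -0.183, -0.180 and -0.488 across genes.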

Additional observations from a re-analysis of the deposited data

How the results depend on the processing

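Of the 8 tested members, 0 were called under each of the 14 alternatives run. These were a pseudocount of 1, no minimum, a minimum mean of 50, upper-quartile scaling, limma-voom, the authors' deposited test, a replicate block, leaving out each library, and dropping control replicate 3 together with STING KO replicate 1. All 111 values of members recomputed this way were uncalled, and 12 of them changed sign: 4 for Scd1, 3 for Fads2, 2 each for Fads1 and Scd2, and 1 for Elovl1. Fads2 ranged from -0.72 to 0.52 on the log2 scale. With a minimum mean of 50 it was not tested.

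Over all genes, 32 were lower and 0 higher. With the replicate block 18 were lower, and Fads2 stayed at -0.11. Leaving out 1 library gave 21 to 35 lower and 0 to 2 higher, with 21 without control replicate 1 and 2 higher without control replicate 2. Without both libraries rich in liver transcripts 12 were lower, with fewer samples, and the authors' test has 6 higher. The cause of the other changes was not tested. The planned count test and TMM scaling were not run, and the deposited values were tested as a signal. A step was read as 1 read only for the counting intervals of Fads2 and Elovl2 and the limit for Elovl7. With exon union length, ranks moved for Scd1, Fads3, Elovl1 and Fads1. Depth limits Elovl2 and Elovl7, at 0 to 12.9 normalized counts.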

Other observations

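Some genes typical of fat cells were well expressed in these fibroblasts and others were not. Fabp4, the adipocyte fatty acid binding protein, was at 5886, 6517 and 6079 normalized counts in control and at 6854, 6677 and 7605 in STING KO. The values of the groups did not overlap, at a log2 fold change of 0.19 (SE 0.06, unadjusted p = 0.0113, limma adjusted p = 0.712), which did not pass the threshold. Pparg, the nuclear receptor that drives fat cell genes, was at 2870.3 to 3042.5 in the 6 libraries, while Adipoq was at 0.9898 to 3.01 and Lep and Cfd were listed at 0 in all 6. Of the 8 adipocyte markers, 4 were tested and 0 called, at a median log2 fold change of 0.14, and their summed level, nearly all of it Fabp4, was 6118 to 6784 in control and 6921 to 7881 in STING KO.

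The remaining marker lists also had 0 called members: 0 of 12 tested for hepatocytes, 0 of 5 for macrophages and leukocytes, 0 of 2 for epithelium and endothelium, and 0 of 10 for fibroblasts. Cd68, a lysosomal protein of macrophages and other cells, was at 670 to 860 normalized counts, Cd79a, part of the B cell receptor, at 601 to 749 and Krt8, a keratin of simple epithelia, at 413 to 547, while Ptprc, which marks leukocytes, was at 1.0 to 13.0 and Pecam1, which marks endothelium, at 3.99 to 10.9. Pck1, Lyz2 and Krt18, of the lists for other cells, were also higher in control replicate 3 and STING KO replicate 1 than in each other library. So were Dcn and Lum of the fibroblast list. Dcn was at 94.4 and 32.7 against 0 to 4.99, and Lum at 31.8 and 11.9 against 0 to 1.0.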
